A study of Mus musculus with 2 samples.

Results

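The lysosome is the acidic compartment in which cells degrade proteins, lipids and whole organelles, and autophagy is the route that delivers cytoplasm to it. The genes described here encode the parts of that system: the proton pump that acidifies it (the V-ATPase), its proteases (the cathepsins), the LAMP proteins that coat its membrane, the Atg and Ulk proteins that build autophagosomes, and the adaptor Sqstm1. To them belong the transcription factors that act on lysosomal genes, Tfe3, Tfeb and Mitf, and the folliculin complex (Flcn with Fnip1 or Fnip2) that controls those factors. The members are all genes of the table whose symbols begin with Atp6v or Atp6ap, are named Cts with 1 letter, Lamp1 to Lamp3, Atg with a number, Ulk1, Ulk2, Sqstm1, Tfeb, Tfe3, Mitf, Flcn, Fnip1 or Fnip2. That rule took 70 of 18032 listed genes and used no measured value.

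Polyadenylated RNA of wild-type mouse stem cells was sequenced, 1 library from each of 2 pluripotent states. The cEpiSC library came from epiblast stem cells converted in culture: ground-state cells on fibronectin were left in 2iLIF for 24 h and then kept for 2 days in N2B27 that held activin A (20 ng/ml) and FGF2 (12 ng/ml). The mESC library came from the embryonic stem cell line ES-E14TG2a kept in 2iLIF, which is serum-free N2B27 with the MEK inhibitor PD0325901 (1 µM), the GSK3 inhibitor CHIR99021 (3 µM) and LIF (100 units/ml). No state has a second library, so every difference lacks a replicate check and p-values were not computed. Medium, inhibitors and plating changed together with the state, and their effects and that of the state cannot be told apart.

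The 2 libraries held 2.00e+07 (cEpiSC) and 1.98e+07 (mESC) estimated counts. All 6 primed or formative markers were at least 2-fold higher in cEpiSC, while 6 of 10 naive markers were at least 2-fold lower. Log2 ratios of cEpiSC over mESC lay below 0 for 8 naive markers and above 0 for Fgf4 (0.62) and Dppa3 (0.29). The 6 shared pluripotency markers did not differ alike. Their ratios lay above 0 for Utf1 (2.82), Dppa4 (1.41), Sox2 (0.26) and Pou5f1 (0.13), and below 0 for Nanog (-0.92) and Sall4 (-0.76). Pou5f1 stood at 922 CPM in cEpiSC and 841 CPM in mESC. The 11 listed markers of primitive and visceral endoderm, an embryonic tissue rich in lysosomes, summed to 36.0 CPM in cEpiSC and 77.2 CPM in mESC. Dab2 was the largest part of the sum, at 16.6 CPM in cEpiSC and 59.8 CPM in mESC. Of the 6 of these markers compared, Dab2 and Gata4 were at least 2-fold lower in cEpiSC and the other 4 had ratios above 0. Cubn was at least 2-fold higher, at 2.88 CPM in cEpiSC and 0.258 CPM in mESC, and Gata6 stood at 7.48 CPM in cEpiSC and 5.63 CPM in mESC. Ttr was at 0 in both, Foxa2 at 0 counts in cEpiSC and 1 in mESC and Afp at 2 counts in cEpiSC and 0 in mESC. The summed markers of trophoblast (6 of 8 listed genes found) were 10.2 CPM in cEpiSC and 4.19 CPM in mESC, with 3 of the 4 compared at least 2-fold higher in cEpiSC. These were Hand1 (38 counts in cEpiSC and 3 in mESC), Gata3 (60 counts in cEpiSC and 18 in mESC) and Ascl2 (80 counts in cEpiSC and 27 in mESC), while Cdx2 had 0 counts in cEpiSC and 5 in mESC. Hand1, Gata3 and Cubn, like some primed or formative markers, reached 1 CPM in cEpiSC alone. They could be compared only because they were higher there. The summed markers of fibroblasts (8 of 8) were 7.38 CPM in cEpiSC and 3.98 CPM in mESC, of which Thy1, at least 2-fold higher, had 4.59 CPM in cEpiSC and 1.09 CPM in mESC. Postn was at 0 in both, and the 3 macrophage markers found (Adgre1, Csf1r and Ptprc) were at 0 in both. The part of such cells in the differences below was not tested. In bulk RNA, fewer cells with a transcript and less of it per cell cannot be told apart.

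As background, the MiT factors Tfe3, Tfeb and Mitf bind short promoter elements around the sequence CACGTG, known in lysosomal genes as CLEAR elements. When nutrients are plentiful, the kinase complex mTORC1 on the lysosome surface phosphorylates these factors and they stay in the cytoplasm; the folliculin complex, acting on Rag GTPases, is needed for this. In mouse embryonic stem cells Tfe3 is known to be nuclear in the naive state and to act on the naive gene Esrrb, and folliculin is known to be required for cells to leave that state. RNA levels show neither where these proteins are nor how active they are.

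To show the element as it stands in this gene set, promoters (250 bases before to 50 after an annotated start, RefSeq, GRCm38.p6) were searched. A RefSeq promoter was found for 57 of the 70 genes. CACGTG, which reads the same on both strands, stood in the promoter of 14 of these (24.6%), and the longer TCACGTG, searched on both strands and always containing CACGTG, in 11 (19.3%). Of the 56 members abundant enough to be compared, 47 had a promoter, with CACGTG in 14 (29.8%) and TCACGTG in 11 (23.4%). Over all genes compared, 10578 had a promoter, of which 11.8% held CACGTG and 6.91% TCACGTG. Over all 32851 RefSeq promoters of that length the shares were 7.15% and 3.77%. The 6 windows printed here all end before the annotated start that was searched, which need not be the outermost start of the gene. The Ctsa and Atp6v1a windows lie inside the RefSeq gene bounds, and those of Fnip1 and Atp6v0b partly so. The windows read 5′ to 3′ along the gene, with TCACGTG or its reverse CACGTGA in capitals. Lamp1, Ctsa and Fnip1 carry this element and had transcripts at least 2-fold lower in cEpiSC, as had 9.25% of all genes compared. Ctsd, Atp6v0b and Atp6v1a carry it too and stayed within 2-fold. These 6 all had log2 ratios of cEpiSC over mESC below 0, as had 75% of the members compared and 51.2% of all genes compared. The element also stood in promoters not printed, all of genes within 2-fold: Atg3, Atg7 and Atg14 with ratios below 0, and Atp6v0d1 (0.32) and Atp6v0e (0.02) above 0.
Lamp1: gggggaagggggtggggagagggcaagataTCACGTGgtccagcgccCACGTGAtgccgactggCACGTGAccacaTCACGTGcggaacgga
Ctsa: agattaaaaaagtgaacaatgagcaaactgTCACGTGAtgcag
Fnip1: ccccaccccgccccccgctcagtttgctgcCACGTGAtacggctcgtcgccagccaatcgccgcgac
Ctsd: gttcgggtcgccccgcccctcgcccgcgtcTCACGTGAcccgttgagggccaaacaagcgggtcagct
Atp6v0b: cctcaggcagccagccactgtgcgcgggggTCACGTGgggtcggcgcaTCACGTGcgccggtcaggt
Atp6v1a: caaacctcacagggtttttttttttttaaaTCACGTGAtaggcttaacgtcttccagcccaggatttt
The Lamp1 window (chr8:13159069-13159160 on the plus strand) holds 4 copies of CACGTG and ends at the base before the start. Those of Ctsa (chr2:164833730-164833772 on the plus strand) and Fnip1 (chr11:54438074-54438140 on the plus strand) hold 1 each. The windows of Ctsd (chr7:142387889-142387956 on the minus strand), Atp6v0b (chr4:117887330-117887396 on the minus strand) and Atp6v1a (chr16:44139354-44139421 on the minus strand) hold 1, 2 and 1. A match describes the letters in this window and is not evidence of binding.

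The comparison asks how lysosomal and autophagy transcripts in converted cells differ from those in ground-state cells. Transcripts were at least 2-fold lower in cEpiSC for the factors Mitf and Tfeb, the folliculin partners Fnip1 and Fnip2, the membrane proteins Lamp1 and Lamp2, the proteases Ctsa, Ctsb and Ctsc, and Ulk1, Atg2a and Atg16l2 of the autophagy machinery. They were at least 2-fold higher for Ulk2, Atg9b, Ctsh and Ctso, all scarce in both libraries. Of the lower members, Atg16l2 was also scarce in both libraries and Mitf in cEpiSC. Tfe3, Sqstm1 and the V-ATPase stayed within 2-fold. Levels are given in TPM, which is scaled per transcript length and so can be compared between genes. Ratios are log2 of cEpiSC over mESC from the counts, scaled between libraries (TMM), with an exact 95% interval in brackets that covers counting error only. A gene was compared if it reached 1 CPM in at least 1 library, and is called higher or lower here from a 2-fold difference on, with no test. Of the 70 members, 56 were compared: 12 were lower, 4 higher and 40 within 2-fold. The lower share of 21.4% stands beside 9.25% of all 13243 genes compared, and the higher share of 7.14% beside 13.6%. Ratios below 0 were found for 42 members (75%) and for 51.2% of all genes, and the counting interval lay wholly below 0 for 33 members (58.9%) and for 39.1% of all genes. It lay wholly above 0 for 10 (17.9%) and for 36.6%. The members' median ratio was -0.32, against -0.02 for all genes. TCACGTG stood in 3 of the 11 lower members with a promoter, in 8 of 33 within 2-fold, and in none of the 3 higher ones. Among all genes with a promoter it stood in 65 of 929 lower, 614 of 8285 within 2-fold (7.41%) and 52 of 1364 higher (3.81%).

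**Figure D1:**
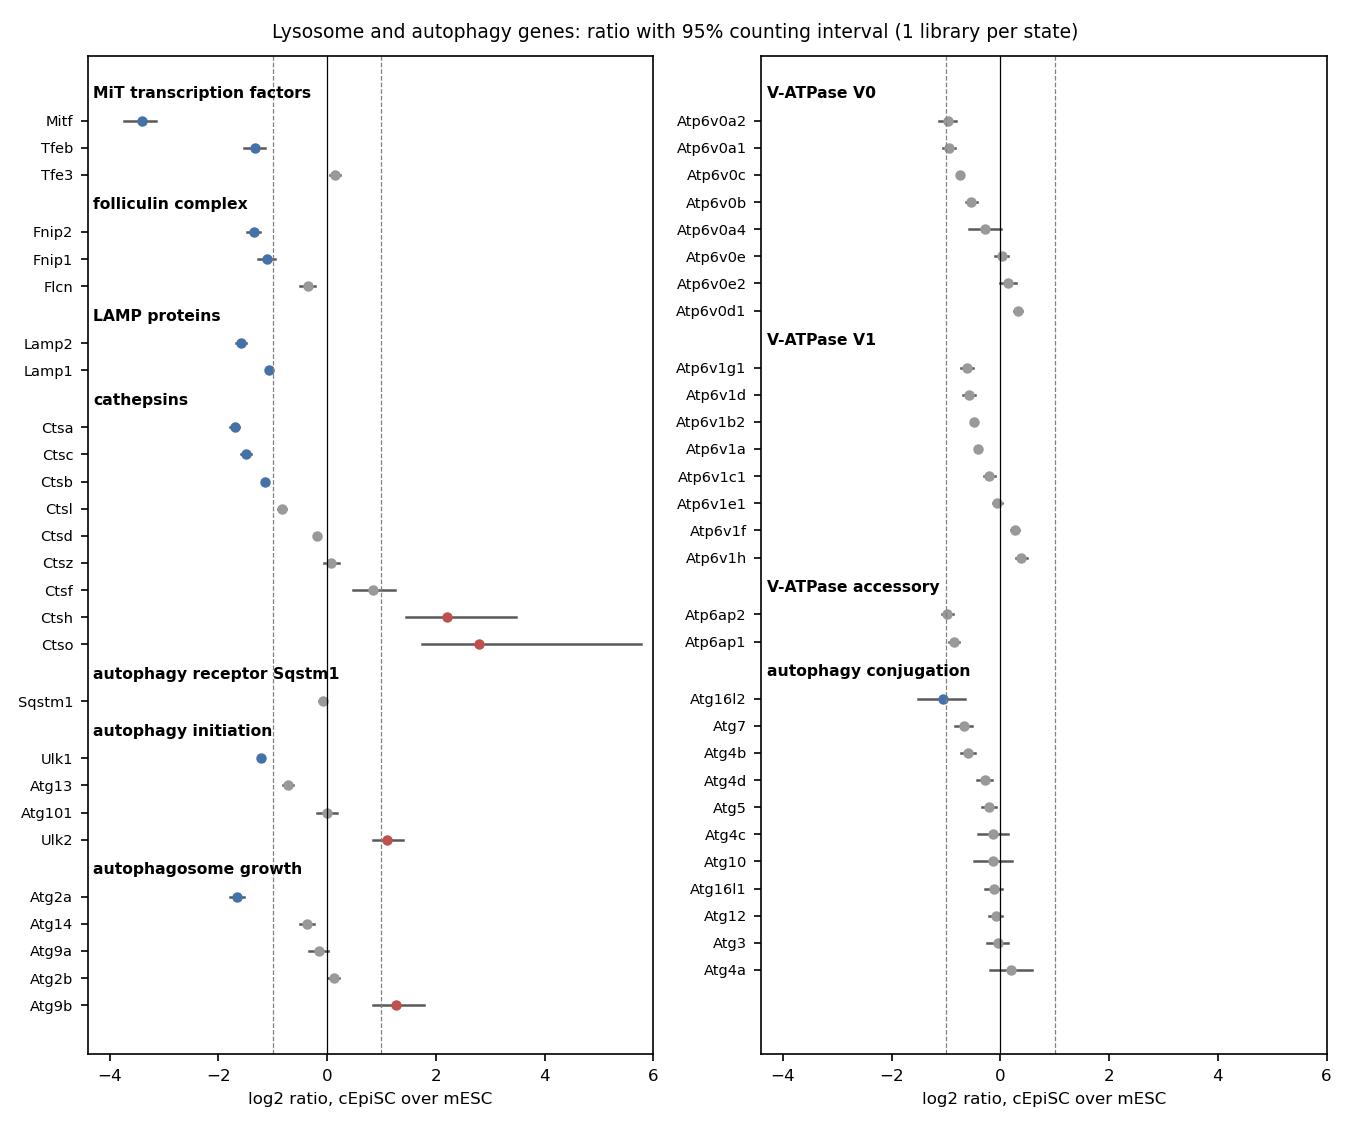
Log2 ratio of cEpiSC over mESC for the 56 members compared, grouped by role. Points are the ratio and lines its 95% counting interval, blue where at least 2-fold lower in cEpiSC (12), red where at least 2-fold higher (4) and grey between, and dashed lines mark 2-fold. Mitf lies farthest to the left, and all V-ATPase genes lie inside the dashed lines.

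Of the 3 MiT factors, Mitf and Tfeb were lower in cEpiSC and Tfe3 was slightly higher. Mitf, best known as the master factor of pigment cells (GRCm38.p6 chromosome 6, 97807002 to 98021360), stood at 1.91 TPM in cEpiSC and 22.0 TPM in mESC, from 105 counts in cEpiSC and 1071 in mESC. Its ratio of -3.41 (-3.73 to -3.14), 10.8-fold lower, was the lowest of all members. Tfeb, the factor most often tied to lysosome biogenesis (chromosome 17, 47737037 to 47792416), stood at 13.1 TPM in cEpiSC and 33.8 TPM in mESC, a ratio of -1.33 (-1.53 to -1.14). Tfe3 (chromosome X, 7762530 to 7775202) stood at 57.8 TPM in cEpiSC and 53.2 TPM in mESC, a ratio of 0.15 (0.06 to 0.25). Tfe3 was thus the most abundant of the 3 per length in both libraries, and by the more in cEpiSC. Of their summed TPM, Tfe3 made up 79.4% (77.6 to 81.1) in cEpiSC and 48.8% (47.1 to 50.5) in mESC. Mitf made up 2.62% in cEpiSC and 20.2% in mESC, and Tfeb the rest. The sum itself was 72.8 TPM in cEpiSC and 109 TPM in mESC. The naive gene Esrrb, a known Tfe3 target, stood at 173 TPM in cEpiSC and 391 TPM in mESC (log2 ratio -1.15, -1.19 to -1.11). Esrrb was at least 2-fold lower in the library in which Tfe3 RNA was not lower, and was among the 6 of 10 naive markers at least 2-fold lower there. The part of Tfe3 in these differences was not tested.

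Transcripts of both folliculin-interacting proteins were lower, and that of folliculin itself stayed within 2-fold. Flcn (chromosome 11, 59791408 to 59810039), the scaffold of the complex, stood at 18.1 TPM in cEpiSC and 23.7 TPM in mESC, a ratio of -0.36 (-0.51 to -0.21). Fnip1 stood at 7.44 TPM in cEpiSC and 16.8 TPM in mESC (log2 ratio -1.11, -1.26 to -0.96). Fnip2 stood at 9.83 TPM in cEpiSC and 25.6 TPM in mESC (log2 ratio -1.34, -1.47 to -1.23), and its estimated count was not whole, so some of its reads were split in the counting. Per length Fnip2 exceeded Fnip1 in both libraries, at 56.9% of their sum in cEpiSC and 60.3% in mESC. Fnip1 has a long transcript, and after ratios were centred on genes of like length its value was -0.79, within 2-fold. That of Fnip2 was -1.03.

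**Figure D2:**
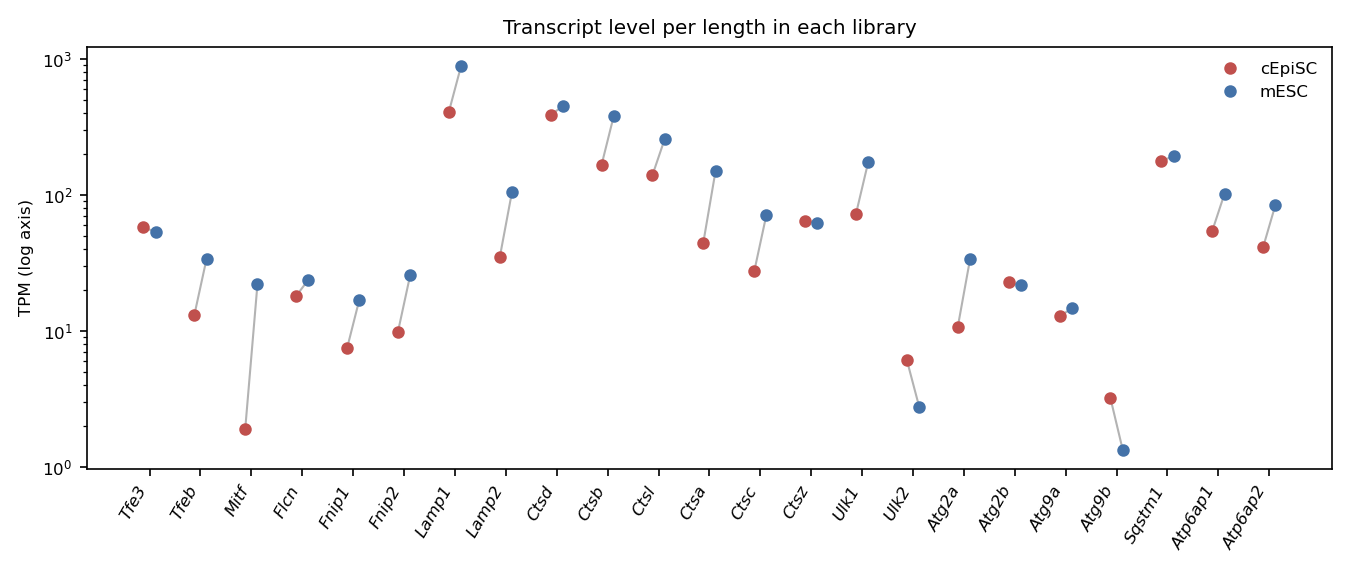
Transcript level per length (TPM, log axis) of 23 members in cEpiSC (red) and mESC (blue), 1 library each, with lines joining the 2 values of a gene. Mitf has the steepest line, Tfe3, Ctsz, Atg2b and Sqstm1 are close to level, and only Tfe3, Ctsz, Ulk2, Atg2b and Atg9b of these genes are higher in cEpiSC.

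Transcripts of Lamp1 and Lamp2, which encode heavily glycosylated proteins that make up much of the lysosomal membrane, were both lower. Lamp1 (chromosome 8, 13159161 to 13175338), the most abundant member per length in mESC and after Atp6v1f in cEpiSC, stood at 406 TPM in cEpiSC and 881 TPM in mESC. It ranked 318 in cEpiSC and 150 in mESC among all listed genes by TPM. Its ratio of -1.07 (-1.10 to -1.04) was just past 2-fold, and with scaling to library totals alone it was just inside (-0.998). Lamp1 exons overlap 177 bases of Grtp1 on the other strand, a gene at 29.6 CPM in cEpiSC and 46.4 CPM in mESC. Lamp2, which also serves in a form of autophagy that takes up single proteins, stood at 34.6 TPM in cEpiSC and 104 TPM in mESC (log2 ratio -1.58, -1.67 to -1.49). Lamp3, known from dendritic cells, had 4 counts in cEpiSC and 2 in mESC and was not compared.

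Among the cathepsins, 3 were lower, 2 higher and 4 within 2-fold, of 9 compared, where 9.25% of all genes were lower and 13.6% higher. Their median was -0.18, and the abundant ones did not differ alike. Ctsa, the carboxypeptidase that also protects the enzymes Glb1 and Neu1, stood at 44.5 TPM in cEpiSC and 149 TPM in mESC (log2 ratio -1.70, -1.78 to -1.62). Ctsc, an aminopeptidase that activates other proteases, stood at 27.3 TPM in cEpiSC and 71.3 TPM in mESC (log2 ratio -1.49, -1.58 to -1.41). Ctsb, a cysteine protease, stood at 165 TPM in cEpiSC and 379 TPM in mESC (log2 ratio -1.14, -1.20 to -1.09). These 3 were the lower ones. Ctsl, another cysteine protease, stood at 139 TPM in cEpiSC and 256 TPM in mESC (log2 ratio -0.82, -0.89 to -0.75) and thus inside 2-fold. By contrast Ctsd, the main aspartic protease of lysosomes, stood at 384 TPM in cEpiSC and 449 TPM in mESC (log2 ratio -0.18, -0.22 to -0.14). Ctsz stood at 64.0 TPM in cEpiSC and 62.5 TPM in mESC (log2 ratio 0.08, -0.05 to 0.21). Ctsd therefore made up 45.9% (45.2 to 46.7) of the summed TPM of the 9 cathepsins compared in cEpiSC and 32.8% (32.2 to 33.3) in mESC, while Ctsb made up 19.8% (19.2 to 20.3) in cEpiSC and 27.6% (27.1 to 28.1) in mESC. The sum over all 16 cathepsins was 837 TPM in cEpiSC and 1372 TPM in mESC.

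The higher cathepsins were scarce in both libraries. Ctsh, an aminopeptidase, had 61 counts in cEpiSC and 11 in mESC (log2 ratio 2.20, 1.45 to 3.47), and Ctso had 34 counts in cEpiSC and 3 in mESC (log2 ratio 2.79, 1.75 to 5.77). These are the 2 members that reached 1 CPM in cEpiSC alone, so they could be compared only because they were higher there. Ctsf, also scarce, had 169 counts in cEpiSC and 88 in mESC (log2 ratio 0.85, 0.48 to 1.25), short of 2-fold. The placental cathepsins Ctsm, Ctsq and Ctsr, the gastric Ctse, the osteoclast enzyme Ctsk and the immune cathepsins Ctss and Ctsw had at most 10 counts in each library.

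The estimated counts of Ctsa, Ctsb and Ctsl were not whole, so some of their reads were split in the counting; between which loci was not tested. Exons of Ctsb overlap 774 bases of Fdft1 on the other strand, and those of Ctsa 495 bases of Pltp. Fdft1 and Pltp differed little, with log2 ratios of 0.13 and 0.10. For Ctsc, counts and FPKM imply an effective transcript length of 4871 bases in cEpiSC and 5419 in mESC. It was the only one of 51 members with at least 100 counts in both libraries whose implied length differed by over 10%, as did 1.87% of 9874 such genes.

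The V-ATPase pumps protons into the lysosome through a membrane ring, V0, driven by a cytoplasmic motor, V1, that splits ATP. None of its 18 genes compared was 2-fold apart, yet 13 were below 0, 11 with the counting interval wholly so, and the median was -0.45. Of all genes, 9.25% were lower and 13.6% higher by 2-fold, 51.2% were below 0, and 39.1% had the interval wholly so. In V0, the ring subunit gene Atp6v0c was the most abundant at 402 TPM in cEpiSC and 694 TPM in mESC (log2 ratio -0.74, -0.79 to -0.69), and its partner Atp6v0b stood at 129.8 TPM in cEpiSC and 194 TPM in mESC (log2 ratio -0.53, -0.64 to -0.43). The a subunit, which carries protons across and directs the pump to a compartment, has alternative genes. Atp6v0a1 stood at 25.1 TPM in cEpiSC and 49.8 TPM in mESC (log2 ratio -0.94, -1.05 to -0.84). Atp6v0a2 stood at 8.34 TPM in cEpiSC and 16.9 TPM in mESC (log2 ratio -0.97, -1.13 to -0.82). Atp6v0a4, the form of kidney and inner ear, stood at 4.75 TPM in cEpiSC and 5.98 TPM in mESC (log2 ratio -0.28, -0.58 to 0.01), a difference not detectable at this depth, and its estimated count in cEpiSC was not whole. Of the summed TPM of these 3 genes, Atp6v0a1 made up 65.7% in cEpiSC and 68.5% in mESC. Atp6v0a4 made up 12.5% (10.9 to 14.2) in cEpiSC and 8.22% (7.22 to 9.35) in mESC, the larger share in cEpiSC by more than counting error. Exons of Atp6v0a4 overlap 259 bases of D630045J12Rik on the same strand, a gene at 38.6 CPM in cEpiSC and 36.8 CPM in mESC. The part of D630045J12Rik in the Atp6v0a4 value was not tested. The other a subunit gene, Tcirg1, which the symbol rule does not take in and these shares leave out, stood at 18.7 TPM in cEpiSC and 22.2 TPM in mESC. Atp6v0d1, which joins V0 to the central stalk, went the other way at 215 TPM in cEpiSC and 179 TPM in mESC (log2 ratio 0.32, 0.25 to 0.39). Its osteoclast form Atp6v0d2 had 0 counts in cEpiSC and 2 in mESC. The small subunit genes Atp6v0e and Atp6v0e2 had ratios of 0.02 (-0.10 to 0.14) and 0.14 (-0.01 to 0.29), both with intervals that span 0.

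In V1, the ATP-splitting head subunits had ratios below 0. Atp6v1a stood at 103 TPM in cEpiSC and 142 TPM in mESC (log2 ratio -0.42, -0.47 to -0.36). Atp6v1b2 stood at 154 TPM in cEpiSC and 223 TPM in mESC (log2 ratio -0.48, -0.54 to -0.43). Among the stalk genes, Atp6v1d (log2 ratio -0.58, -0.69 to -0.47), Atp6v1g1 (log2 ratio -0.61, -0.73 to -0.50) and Atp6v1c1 (log2 ratio -0.20, -0.31 to -0.10) were also below 0. Atp6v1f, the most abundant V1 gene per length, stood at 635 TPM in cEpiSC and 544 TPM in mESC (log2 ratio 0.27, 0.20 to 0.34). Atp6v1h, a regulatory subunit, stood at 82.2 TPM in cEpiSC and 65.4 TPM in mESC (log2 ratio 0.38, 0.28 to 0.48), and Atp6v1e1 had a ratio of -0.06 (-0.14 to 0.02). Subunits of 1 complex thus differed from each other in direction by more than counting error. Exons of Atp6v1h overlap 127 bases of Rgs20 on the other strand, which stood at 2.79 CPM in cEpiSC and had 0 counts in mESC. The tissue-restricted forms Atp6v1b1, Atp6v1c2 and Atp6v1g2 had at most 18 counts and were not compared. The genes of the accessory proteins that help assemble the pump, with Atp6v0a1 and Atp6v0a2, had the lowest ratios among its genes. Atp6ap1 stood at 54.4 TPM in cEpiSC and 102 TPM in mESC (log2 ratio -0.85, -0.95 to -0.76). Atp6ap2, also called the prorenin receptor, stood at 41.3 TPM in cEpiSC and 84.2 TPM in mESC (log2 ratio -0.98, -1.08 to -0.87), just short of 2-fold. Atp6ap1l had 4 counts in cEpiSC and 2 in mESC, and Atp6v1fnb, which the rule takes in by its name only, had none.

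In the autophagy machinery, 3 of 21 genes stood lower and 2 higher by 2-fold, 16 did neither, and the median was -0.14. Of all genes, 9.25% were lower and 13.6% higher. Ratios below 0 were found for 17 of the 21, against 51.2% of all genes. The counting interval lay wholly below 0 for 10 of the 21, against 39.1% of all genes. It lay wholly above 0 for 3, against 36.6% of all genes. Paralogs that share a role often differed from each other. Ulk1 (chromosome 5, 110784489 to 110810120), the kinase that starts autophagosome formation, stood at 72.5 TPM in cEpiSC and 174 TPM in mESC (log2 ratio -1.22, -1.27 to -1.16). Its paralog Ulk2 stood at 6.08 TPM in cEpiSC and 2.78 TPM in mESC (log2 ratio 1.11, 0.84 to 1.39), the opposite direction. Ulk1 was by far the more abundant in both libraries, at 92.3% of their summed TPM in cEpiSC and 98.4% in mESC. Of their partners, Atg13 stood at 38.6 TPM in cEpiSC and 65.5 TPM in mESC (log2 ratio -0.72, -0.81 to -0.63). Atg101 stood at 36.6 TPM in cEpiSC and 37.9 TPM in mESC (log2 ratio -0.00, -0.19 to 0.18), a ratio whose sign turned with library totals, FPKM or DESeq2 size factors.

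Atg2a and Atg2b carry lipids into the growing membrane. Atg2a stood at 10.7 TPM in cEpiSC and 33.5 TPM in mESC (log2 ratio -1.65, -1.78 to -1.52). Atg2b stood at 22.8 TPM in cEpiSC and 21.6 TPM in mESC (log2 ratio 0.12, 0.02 to 0.22). The order of the pair per length was thus not the same in the 2 libraries: Atg2a made up 32.0% (30.1 to 34.0) of their sum in cEpiSC and 60.8% (59.2 to 62.4) in mESC. Atg9a, the membrane protein of the seed vesicles, stood at 12.8 TPM in cEpiSC and 14.6 TPM in mESC (log2 ratio -0.15, -0.32 to 0.01). Its scarcer paralog Atg9b had 143 counts in cEpiSC and 55 in mESC (log2 ratio 1.27, 0.84 to 1.77), the first not a whole number as deposited. Atg9b lies opposite Nos3, with 294 exon bases in common. Nos3 stood at 13.1 CPM in cEpiSC and 0.517 CPM in mESC, and its part in the Atg9b value was not tested. Atg14, which brings the lipid kinase to the site, had a ratio of -0.37 (-0.51 to -0.24).

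The conjugation genes, which attach LC3-like proteins to the membrane, lay mostly within 2-fold. Of 11, 10 were within 2-fold, and 6 had intervals that span 0 (Atg3, Atg4a, Atg4c, Atg10, Atg12 and Atg16l1). Of all 13243 genes compared, 10222 were within 2-fold and 3209 had intervals that span 0. Ratios below 0 were found for 10 of the 11 conjugation genes, 5 with the interval wholly so. Over all genes these shares were 51.2% and 39.1%. The E1-like enzyme gene Atg7 stood at 17.3 TPM in cEpiSC and 28.0 TPM in mESC (log2 ratio -0.68, -0.83 to -0.52). The LC3 protease gene Atg4b stood at 25.8 TPM in cEpiSC and 40.3 TPM in mESC (log2 ratio -0.59, -0.72 to -0.47). Atg5 stood at 35.1 TPM in cEpiSC and 42.3 TPM in mESC (log2 ratio -0.21, -0.34 to -0.08). Atg4d had a ratio of -0.29 (-0.42 to -0.16), with counts that were not whole and 1379 exon bases in common with Kri1 on the other strand. Atg12, a ubiquitin-like protein gene, stood at 43.2 TPM in cEpiSC and 49.4 TPM in mESC, the most abundant Atg gene per length in cEpiSC and after Atg13 in mESC. Atg16l1, needed for the conjugating complex, stood at 19.5 TPM in cEpiSC and 21.9 TPM in mESC, while its paralog Atg16l2 was lower at 1.85 TPM in cEpiSC and 5.49 TPM in mESC (log2 ratio -1.06, -1.52 to -0.66). Atg16l2 rested on 70 counts in cEpiSC and 140 in mESC, and with library totals its ratio was -0.99. Its implied transcript length was 3218 bases in cEpiSC and 2367 in mESC, so that the ratio of deposited FPKM, without pseudocount, was -1.45. Sqstm1, also called p62, which links ubiquitin-tagged cargo to the autophagosome and is itself degraded there, had nearly equal counts, 3993 in cEpiSC and 3992 in mESC. It stood at 176 TPM in cEpiSC and 193 TPM in mESC (log2 ratio -0.08, -0.14 to -0.02). Its exons overlap 580 bases of the much scarcer Mrnip on the other strand, at 14.9 CPM in cEpiSC and 14.1 CPM in mESC.

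**Figure D3:**
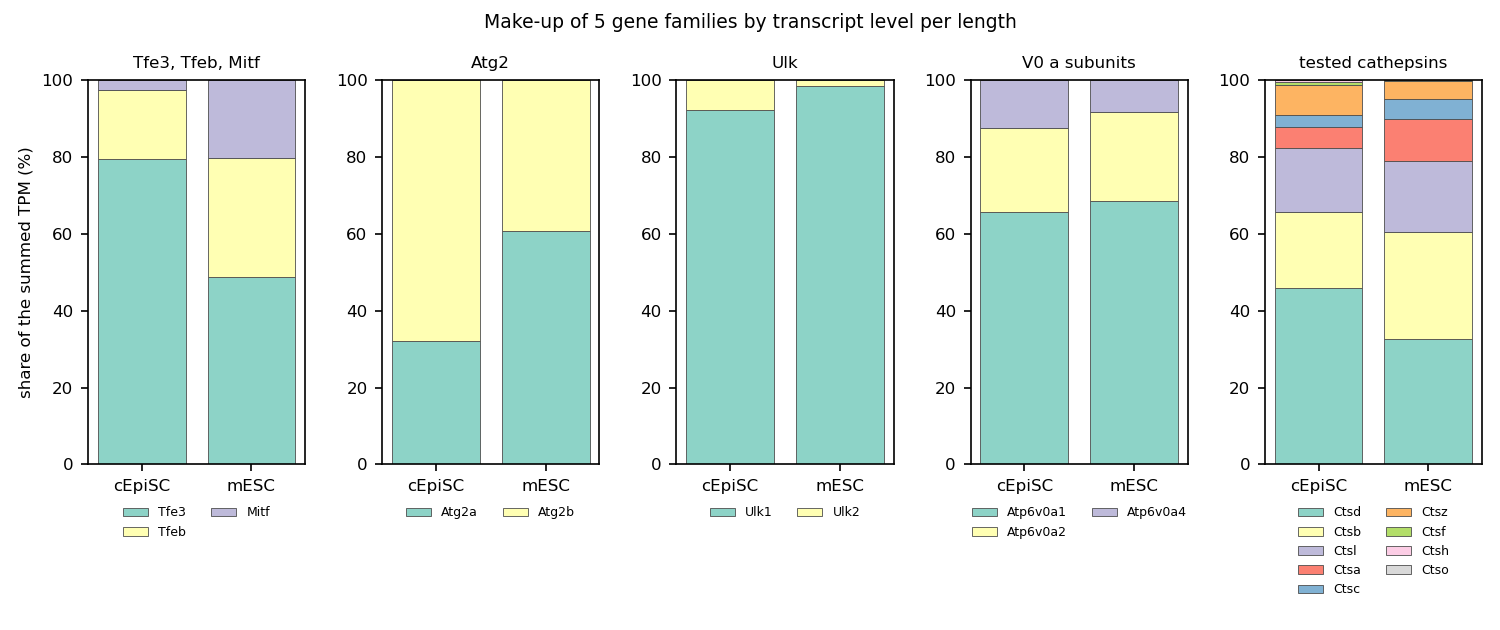
Share of the summed TPM taken by each gene of 5 families, in cEpiSC (left bar) and mESC (right bar), 1 library each. Tfe3 takes 79.4% of its family in cEpiSC and 48.8% in mESC, and Atg2a 32.0% in cEpiSC and 60.8% in mESC. Atp6v0a4 takes 12.5% of the 3 V0 a subunit genes drawn in cEpiSC and 8.22% in mESC, and Tcirg1 is not drawn. Exons of Atp6v0a4 overlap those of D630045J12Rik on the same strand, and the part of that gene in this share was not tested.

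Other genes of the pathway were taken from 4 lists that exclude the members, and the medians of the 2 lysosomal lists lay further below 0 than those of the other two. Of 42 lysosomal hydrolases and their cofactors, 10 were lower (23.8%) and 1 higher (2.38%), against 9.25% and 13.6% of all genes. The other 31 were within 2-fold, and the median was -0.51, against -0.02 for all genes. Hexa, which degrades gangliosides, stood at 81.9 TPM in cEpiSC and 248 TPM in mESC (log2 ratio -1.55, -1.63 to -1.47). Gaa, the glycogen-cleaving glucosidase, stood at 35.7 TPM in cEpiSC and 100.0 TPM in mESC (log2 ratio -1.44, -1.53 to -1.35). The progranulin gene Grn stood at 89.3 TPM in cEpiSC and 261 TPM in mESC (log2 ratio -1.50, -1.57 to -1.43). Dnase2a stood at 17.5 TPM in cEpiSC and 50.7 TPM in mESC (log2 ratio -1.48, -1.68 to -1.30). These 4 had the lowest ratios of the list. Manba, a mannosidase gene named after its value was seen, was the higher one (log2 ratio 1.08, 0.96 to 1.21). Of 33 membrane and sorting genes, 6 were lower (18.2%), 1 higher (3.03%) and 26 within 2-fold, with a median of -0.53. The largest difference was that of Gpnmb, a glycoprotein gene known as a MiT factor target, at 0.760 TPM in cEpiSC and 8.18 TPM in mESC (log2 ratio -3.31, -3.95 to -2.87). The amino acid transporter gene Slc36a1 stood at 2.73 TPM in cEpiSC and 8.76 TPM in mESC (log2 ratio -1.71, -1.99 to -1.46). The nucleoside transporter gene Slc29a3 stood at 7.42 TPM in cEpiSC and 23.9 TPM in mESC (log2 ratio -1.63, -1.79 to -1.47). The sorting receptor gene Sort1 was the one higher gene of this list, at 14.3 TPM in cEpiSC and 5.06 TPM in mESC (log2 ratio 1.54, 1.38 to 1.72).

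Genes of the nutrient-sensing Rag GTPase and mTORC1 pathway were centred near 0, with 2 of 35 lower (5.71%), 2 higher and a median of -0.01. Rragd, the Rag GTPase known to be induced by MiT factors and acted on by folliculin, stood at 8.80 TPM in cEpiSC and 25.5 TPM in mESC (log2 ratio -1.49, -1.64 to -1.34). Rragb, a Rag of the other class, stood at 34.4 TPM in cEpiSC and 13.2 TPM in mESC (log2 ratio 1.42, 1.24 to 1.61). Rragd and Rragb thus differed in opposite directions, while the other Rag genes, Rraga and Rragc, stayed within 2-fold. Castor1, an arginine sensor gene, stood at 98.6 TPM in cEpiSC and 42.0 TPM in mESC (log2 ratio 1.28, 1.15 to 1.41). Of 40 further autophagy genes, 2 were lower and 2 higher, with a median of -0.08, against 9.25% lower and 13.6% higher of all genes. Both lower calls ended with library totals and with FPKM, which left 0. The mitophagy receptor gene Bnip3, a known hypoxia target, stood at 174 TPM in cEpiSC and 20.1 TPM in mESC (log2 ratio 3.15, 3.00 to 3.32). The receptor gene Optn stood at 16.4 TPM in cEpiSC and 6.63 TPM in mESC (log2 ratio 1.47, 1.23 to 1.74). Both receptor genes were higher. Gabarap, an LC3-like protein gene, stood at 93.4 TPM in cEpiSC and 200.1 TPM in mESC (log2 ratio -1.05, -1.16 to -0.95). Retreg1, a receptor gene for turnover of the endoplasmic reticulum, stood at 11.9 TPM in cEpiSC and 25.4 TPM in mESC (log2 ratio -1.04, -1.21 to -0.87). TCACGTG stood in the promoters of 8 of 33 hydrolase genes with one (24.2%) and 8 of 30 membrane and sorting genes (26.7%). It stood in those of 5 of 30 Rag and mTORC1 genes (16.7%) and 3 of 32 further autophagy genes (9.38%). Over all genes compared that had a promoter, the share was 6.91%.

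**Figure D4:**
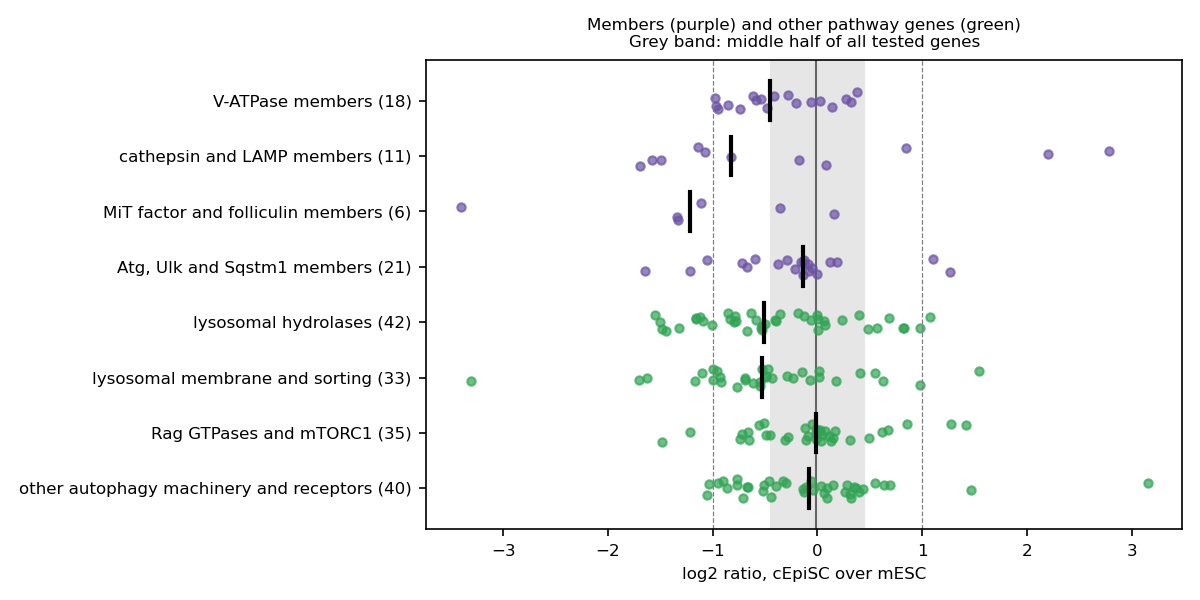
Log2 ratio of cEpiSC over mESC for each gene compared, in 4 groups of members (purple) and the 4 other pathway lists (green), with the number of genes in brackets and the median as a black bar. The grey band spans all genes compared from the lower to the upper quartile (-0.44 to 0.44) with their median as a line, and dashed lines mark 2-fold. The medians of the V-ATPase, cathepsin and LAMP, MiT and folliculin, hydrolase, and membrane groups lie at or left of the band's edge, and those of the Rag and both autophagy groups lie inside it. Cathepsins without Lamp1 and Lamp2 have a median of -0.18, inside the band.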

How the data were processed

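Per the labels, total RNA was column-purified, captured on oligo(dT) beads, fragmented and made into dUTP-marked libraries, sequenced as paired reads on a DNA nanoball instrument. HISAT2, Bowtie2, RSEM 1.3.1, DESeq2 1.34.0 and the build GRCm38.p6 are named by the submitters' processing notes. Which step each tool served, and what annotation, filters or strand setting it ran with, is not given in the sources used here. Per the file headers, the authors deposited read counts, TPM and FPKM for each gene and library. The deposited counts are estimated counts, since 11.9% (cEpiSC) and 11.3% (mESC) of genes lie over 0.005 from a whole number, as when reads are split in counting. The deposited TPM values sum to the same total in each library, and the deposited FPKM values to 590682 (cEpiSC) and 543589 (mESC).

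After rounding, counts of all genes were scaled by TMM (edgeR 4.0.16, R 4.3.3, with factors 1.03 for cEpiSC and 0.975 for mESC), and the log2 ratio has a prior count of 2. A gene had to reach 1 CPM in 1 library or both. With no residual degrees of freedom a call is by size (2-fold), and intervals are exact conditional (Clopper-Pearson) 95% intervals without the prior. With 1 library for each state, intervals cover counting error only. Reads carry no molecular identifiers, so copies of 1 molecule cannot be told from separate molecules, and intervals may be too narrow. A count of 0 allows up to 3 counts, or 0.147 CPM (cEpiSC) and 0.155 CPM (mESC). Shares of summed TPM have delta-method 95% intervals on the logit scale from the counts. Effective length was taken from counts, FPKM and library totals. Genes were matched by Entrez identifier to RefSeq coordinates and promoters of GRCm38.p6, and exon overlaps came from GENCODE vM21 of the same build. The calculation was tested on simulated counts.

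Values are given for preset members, all members 2-fold apart, the most abundant and paralogous members of each role, and in other lists up to 4 genes of largest ratio among those 2-fold apart; Manba was added after its value was seen. The value of 1 list gene is not reported here. The members, lists and rules were chosen with earlier results of these data known. Alternatives were DESeq2 1.42.0 size factors, library totals, no filter, a 5 CPM filter, prior counts of 0.5 and 5, TPM and FPKM with a pseudocount of 1, and centring on length deciles. Remaining work used Python 3.11.15.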

Additional observations from a re-analysis of the deposited data

How the results depend on the processing

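No paired analysis was possible because each state has 1 library. The count of lower members was 12 in the main analysis and ranged from 9 with FPKM to 16 without a filter on low counts, and the members' median stayed below that of all genes under each of the 9 alternatives (difference -0.32 to -0.24). The 4 higher members became 2 with a filter at 5 CPM, 1 with TPM and 1 with FPKM, where the pseudocount pulls scarce genes such as Ctso towards 0. Over all genes the higher count was 2712 without a filter, 970 at 5 CPM, 1090 with TPM and 945 with FPKM, and the lower count was 680 with FPKM. Of single calls, Lamp1 and Atg16l2 came within 2-fold with library totals (-0.998 and -0.99) and with FPKM, Fnip1 with FPKM and with centring on length, and Ulk2, Atg9b and Ctso with TPM and FPKM, while Atp6ap2 passed 2-fold with TPM and with centring (-1.01). Signs changed for Atg101, Atg3, Atp6v1e1, Atp6v0e and Ctsz, all near 0, and for no other member. In the other lists, higher hydrolases numbered 2 with library totals and 0 with TPM, and higher membrane genes 2 with library totals, without a filter and with centring. Lower Rag and mTORC1 genes numbered 1 with FPKM and with centring, and lower further autophagy genes 0 with library totals and with FPKM. Library totals leave out the TMM factors, and the FPKM sums differ between the libraries. Centring subtracts the median ratio of each length decile, which ran from 0.17 for the shortest transcripts to -0.32 for the longest. Beyond these steps, and a pseudocount or filter acting on scarce genes, the cause of the shifts was not tested. The median of all genes was -0.02 in the main analysis and between -0.06 and 0.06 elsewhere. The 14 members not compared had at most 18 counts, and low expression and too little depth cannot be told apart for them.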
